A study of Mus musculus with 6 samples.

Results

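The extracellular matrix module described here holds 52 genes for matrix glycoproteins, elastic fibre proteins, laminin chains and lysyl oxidases, among 19938 genes measured in neurally differentiated mouse embryonic stem cells. The members were listed by name and role, with earlier results of these data known, and each was read from its brightest probe set that carries a single gene symbol. Of the 52 members 49 had such a probe set, and Fbn1, Efemp2 and Loxl2 were not analysed here. RNA came from W4 mouse embryonic stem cells grown on coated plates for 16 days in a medium that induces neural differentiation. One group was exposed over those 16 days to 300 uM of the epilepsy drug valproate (VPA), a histone deacetylase inhibitor, and the other to its solvent, phosphate-buffered saline (PBS). Each group had 3 arrays, described as biological replicates, and both groups come from this 1 cell line. What separates the replicates is not stated, so each p-value sets a change against a spread between arrays whose source is not known. The medium of both groups contained added laminin protein, which an RNA measurement does not read.

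The extracellular matrix is the protein network that cells secrete around themselves. Fibronectin is laid down early and guides the assembly of other fibres. In elastic tissue, fibrillin microfibrils carry elastin, fibulins link the parts, latent TGF-beta binding proteins tether growth factor to the microfibrils, and lysyl oxidases cross-link elastin and collagen. Basement membranes are thin sheets built on laminin trimers, each of an alpha, a beta and a gamma chain, joined by nidogens and heparan sulphate proteoglycans to type IV collagen. In the developing brain, basement membranes lie at the pial surface and around vessels, and matricellular proteins such as tenascin-C are made by neural progenitors.

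Signals are log2 values per probe set as deposited by the authors, and each change is VPA minus PBS on that scale, so that a change of 1 is a 2-fold difference. A gene is said to rise or fall where limma gave a Benjamini-Hochberg adjusted p under 0.05 over all 19938 genes. With VPA 31 of the 49 measured members rose and 2 fell, while 16 did not pass. Over all genes 13.6% rose and 15.7% fell. The median change was 0.54 over the members and 0.0013 over all genes. Rises that passed and reached 2-fold numbered 13 among the members, against 1.16% of all genes, and Npnt was the 1 member with such a fall, against 0.502%. The arrays of the groups did not overlap for 36 members, and for 44% of all genes. Neither called fall was in the groups of fibrillins, fibulins, lysyl oxidases or laminins, as the plot of changes by role shows.

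**Figure D1:**
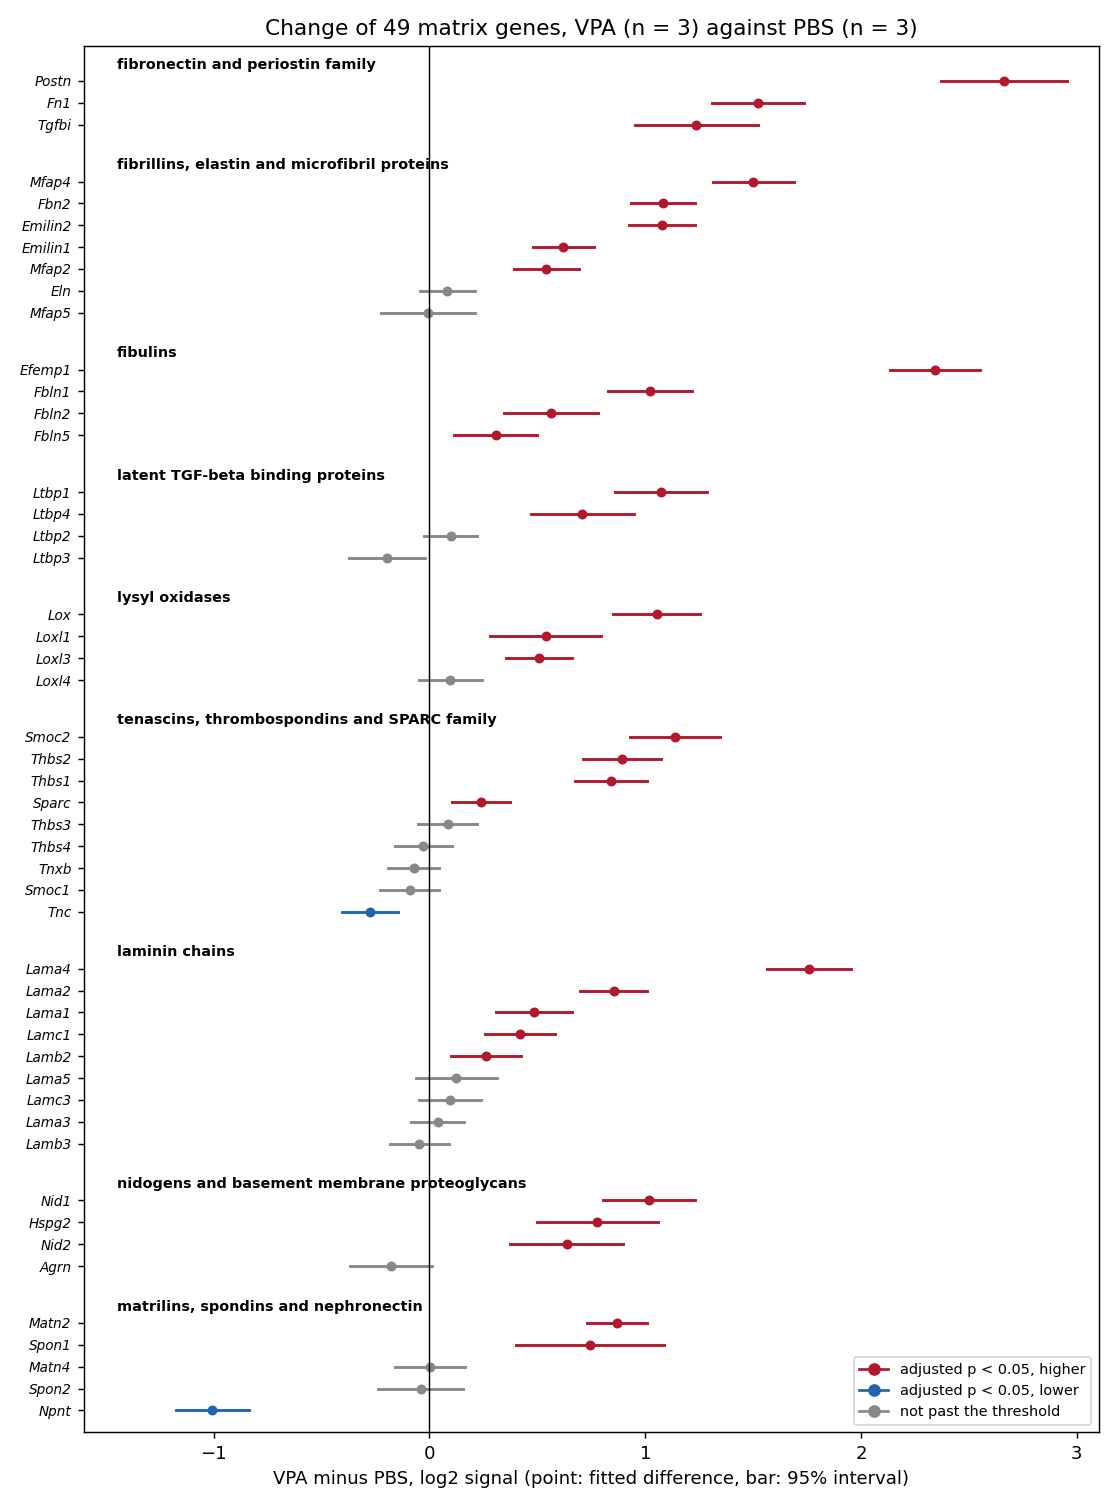
Fitted change of each of the 49 measured members (x axis, VPA minus PBS in log2 signal), ordered by role; points are the differences of the group means (n = 3 arrays each) and bars their 95% intervals, red for the 31 that rose, blue for the 2 that fell and grey for the 16 that did not pass. Postn lies farthest to the right at 2.66 and Npnt farthest to the left at -1.01.

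Array medians over all probe sets lay between 6.99 and 7.03. Relative to the mean of the PBS arrays, the median over the 49 members was 0.64 on VPA 1, 0.48 on VPA 2 and 0.41 on VPA 3, and between -0.02 and 0.02 on the PBS arrays. Over all genes VPA 1 stood apart from the other VPA arrays, with median absolute differences of 0.12 and 0.13, against 0.07 between VPA 2 and VPA 3. Of the 49 members 36 read higher on VPA 1 than on the mean of VPA 2 and VPA 3, as did 8837 of all 19938 genes. Without VPA 1, 31 members rose and 4 fell, the added falls being those of Ltbp3 and Agrn. Over all genes 3949 then rose and 4224 fell, against 2702 and 3123 with all arrays. A level below 6.15, the 95th percentile of 1027 olfactory receptor genes that are mostly silent outside the nose, was not told apart from background. By that gauge 5 members, Mfap5, Loxl4, Thbs4, Lama3 and Spon2, lay at background in both groups.

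In bulk RNA, a rise in the share of cells of a type and more RNA per cell cannot be told apart. Some lists of cell type markers rose beside the module, neuron markers mostly fell, and other lists were mixed or had few calls. Of 11 fibroblast and mesenchyme markers 9 rose and 0 fell, and their summed linear signal was 2216 to 2500 on the PBS arrays and 6867 to 7694 on the VPA arrays. Dcn, Lum and Col1a1 of this list, which rose by 2.28, 2.29 and 1.09, are matrix genes themselves, so the sum is not independent of the matrix. Col1a1 is also in the collagen list below. The receptor gene Pdgfra rose by 1.54 and the mesenchymal transcription factor gene Twist1 by 1.12, while Tcf21 and S100a4 lay at background in both groups. Of 8 endothelial markers 7 rose, with summed signals of 552 to 601 and 976 to 1153. With PBS 5 of the 8 lay at background, and Tek did so in both groups. All 4 measured markers of neural crest and Schwann cells rose, with summed signals of 857 to 912 and 1407 to 1641. Of 6 smooth muscle and pericyte markers 2 rose and 1 fell (381 to 386 against 595 to 761). Tagln, Rgs5 and Cnn1, the one that fell, lay at background in both groups, and Des did so with PBS. Acta2, above background in both groups, rose by 1.85 and had the highest VPA level of the smooth muscle list, so its sum mainly follows this gene. Myh11, also above background, differed by -0.03 and did not pass. Most PBS signals of the endothelial and smooth muscle lists were at background, so the true size of each sum's change is not defined. Of 10 neuron markers 8 fell, with summed signals of 24053 to 25080 and 20390 to 20594. Of 10 endoderm markers, 1 rose and 2 fell, of 7 astroglial markers 1 rose and 3 fell, of 7 epithelial markers 2 rose and 1 fell, of 5 neural progenitor markers 2 rose, and of 4 macrophage markers none passed. Beside these counts, 13.6% of all genes rose and 15.7% fell. The part of any of these cell types in the changes of the matrix genes was not tested.

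Postn and Efemp1 had the largest rises of the module and Npnt the largest fall, and the 150 bases upstream of each listed start of Postn and Efemp1, and of the first of the 2 listed starts of Npnt, are printed for that reason. Sequences are from RefSeq on GRCm38.p6, 5' to 3' on the gene's strand, with capitals marking matches on either strand to TATAAA (the TATA box), GGGCGG (the GC box) or GGAATG (the TEAD motif); these motifs do not overlap one another here.
Postn, first start, chr3:54359117-54359266, plus strand: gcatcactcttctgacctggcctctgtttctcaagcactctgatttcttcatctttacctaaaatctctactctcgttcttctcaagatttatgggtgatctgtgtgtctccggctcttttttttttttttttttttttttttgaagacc
Postn, second start, chr3:54360957-54361106, plus strand: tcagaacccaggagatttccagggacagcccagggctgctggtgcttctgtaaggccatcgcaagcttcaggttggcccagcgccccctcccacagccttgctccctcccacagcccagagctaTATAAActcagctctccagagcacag
Efemp1, only listed start, chr11:28853055-28853204, plus strand: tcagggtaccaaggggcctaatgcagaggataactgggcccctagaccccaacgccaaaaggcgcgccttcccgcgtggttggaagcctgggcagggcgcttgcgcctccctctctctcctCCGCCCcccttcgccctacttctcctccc
Npnt, first start, chr3:132950292-132950441, minus strand: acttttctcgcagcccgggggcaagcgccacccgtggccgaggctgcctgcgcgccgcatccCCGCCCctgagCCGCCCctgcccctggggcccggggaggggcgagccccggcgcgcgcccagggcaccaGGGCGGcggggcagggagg

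The 4 windows differ in these letters. The second Postn start has a TATA box that begins 26 bases upstream and no GC box, the Efemp1 window has 1 GC box, and the window of the first Npnt start has 3. The second Npnt start, not printed, has 0 matches to any of these motifs in its 150 bases. In the full 250 bases upstream, CG dinucleotides numbered 3 and 4 for the Postn starts, 10 for Efemp1 and 21 for the first Npnt start. Of the 49 measured members 29 had a window in the RefSeq table, 42 windows in all. A GC box was present in 54.8% of these and in 32.7% of all 32851 windows of the same length, a TATA box in 9.5% and 12.4%, and a TEAD motif in 14.3% and 12.6%. Among the windows of members that rose, 48.0% held a GC box, and among the other members' windows 64.7% did. These are matches of letters, and binding was not measured.

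All 3 members of the fibronectin and periostin family rose. Postn encodes periostin, a matricellular protein of the periosteum, heart valves and activated fibroblasts. It read 8.30, 8.76 and 8.87 on PBS 1 to 3, and 11.35, 11.24 and 11.33 on VPA 1 to 3. The groups lay far apart, and the PBS arrays spread more than the VPA arrays. The change was 2.66 (SE 0.13, adjusted p = 2.79e-06), a 6.33-fold rise and the fourth largest among all genes (rank 4 of 19938). Fn1, which encodes fibronectin, read 9.07, 9.13 and 9.26 with PBS and 10.88, 10.58 and 10.57 with VPA. Every VPA array was above every PBS array, with VPA 1 highest, and the change was 1.52 (SE 0.09, adjusted p = 9.26e-06). Tgfbi, whose product shares the fasciclin domains of periostin, read 7.54, 7.93 and 7.79 with PBS and 9.25, 8.84 and 8.88 with VPA, a change of 1.24 (SE 0.13, adjusted p = 0.000136).

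Of the 7 measured genes for fibrillins, elastin and microfibril proteins 5 rose, with a group median of 0.62, while Eln and Mfap5 did not pass. Mfap4, which encodes a microfibril-associated protein that binds elastin and fibrillin, read 7.80, 8.08 and 8.10 with PBS and 9.49, 9.47 and 9.51 with VPA. Its VPA arrays were almost identical and the change was 1.50 (SE 0.08, adjusted p = 5.08e-06). Fbn2 encodes fibrillin-2, the fibrillin of embryonic microfibrils. It read 8.26, 8.29 and 8.31 with PBS and 9.48, 9.32 and 9.30 with VPA, a 2.12-fold rise (change 1.08, SE 0.06, adjusted p = 8.16e-06). Emilin2 and Emilin1 encode glycoproteins of the elastin-microfibril interface. Emilin2 went from 7.12, 7.17 and 7.06 to 8.30, 8.17 and 8.11, a change of 1.08 (SE 0.07, adjusted p = 9.26e-06). Emilin1 went from 6.71, 6.70 and 6.81 to 7.43, 7.29 and 7.36, a change of 0.62 (SE 0.06, adjusted p = 0.00013). In both, all VPA arrays exceeded all PBS arrays. Mfap2, which encodes a microfibril glycoprotein that binds fibrillin, rose by 0.54 (SE 0.07, adjusted p = 0.000391) from a PBS mean of 10.89 ± 0.07 (SD, n = 3).

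Eln, which encodes the elastin precursor tropoelastin, read 6.78, 6.83 and 6.77 with PBS and 6.83, 6.93 and 6.87 with VPA. The groups overlapped, and the difference of 0.08 did not pass (95% interval -0.05 to 0.21, adjusted p = 0.315). The upper bound of that interval lies below the lower bound of each of the 5 members of this group that rose, the lowest of which was 0.39 for Mfap2. Mfap3, a microfibril-associated gene outside the module, differed by 0.07 (adjusted p = 0.437). Mfap5 lay at background, at 5.51 ± 0.09 with PBS and 5.51 ± 0.19 with VPA (SD, n = 3).

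The 4 measured fibulin genes of the module rose, with a group median of 0.79. Fbln7, a fibulin gene outside the module, lay at background in both groups and differed by 0.07 (adjusted p = 0.544). Efemp1 encodes fibulin-3, a matrix glycoprotein of elastic tissue and the retina. It read 7.25, 7.59 and 7.56 with PBS and 9.84, 9.74 and 9.85 with VPA. The VPA arrays lay close together (SD 0.06) and above all PBS arrays, and the change was 2.34 (SE 0.09, adjusted p = 1.25e-06), a 5.07-fold rise. Fbln1, whose product binds fibronectin and basement membrane proteins, read 8.30, 8.42 and 8.46 with PBS and 9.59, 9.29 and 9.37 with VPA, a change of 1.02 (SE 0.09, adjusted p = 4.92e-05). Fbln2 read 7.45, 7.28 and 7.34 with PBS and 8.10, 7.95 and 7.71 with VPA, a change of 0.56 (SE 0.10, adjusted p = 0.00243). Fbln5, needed to lay elastin onto microfibrils, rose by 0.31 (SE 0.09, adjusted p = 0.0256). This call was lost without PBS 1 (adjusted p = 0.105), PBS 2 (adjusted p = 0.0649) or VPA 2 (adjusted p = 0.0832).

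**Figure D2:**
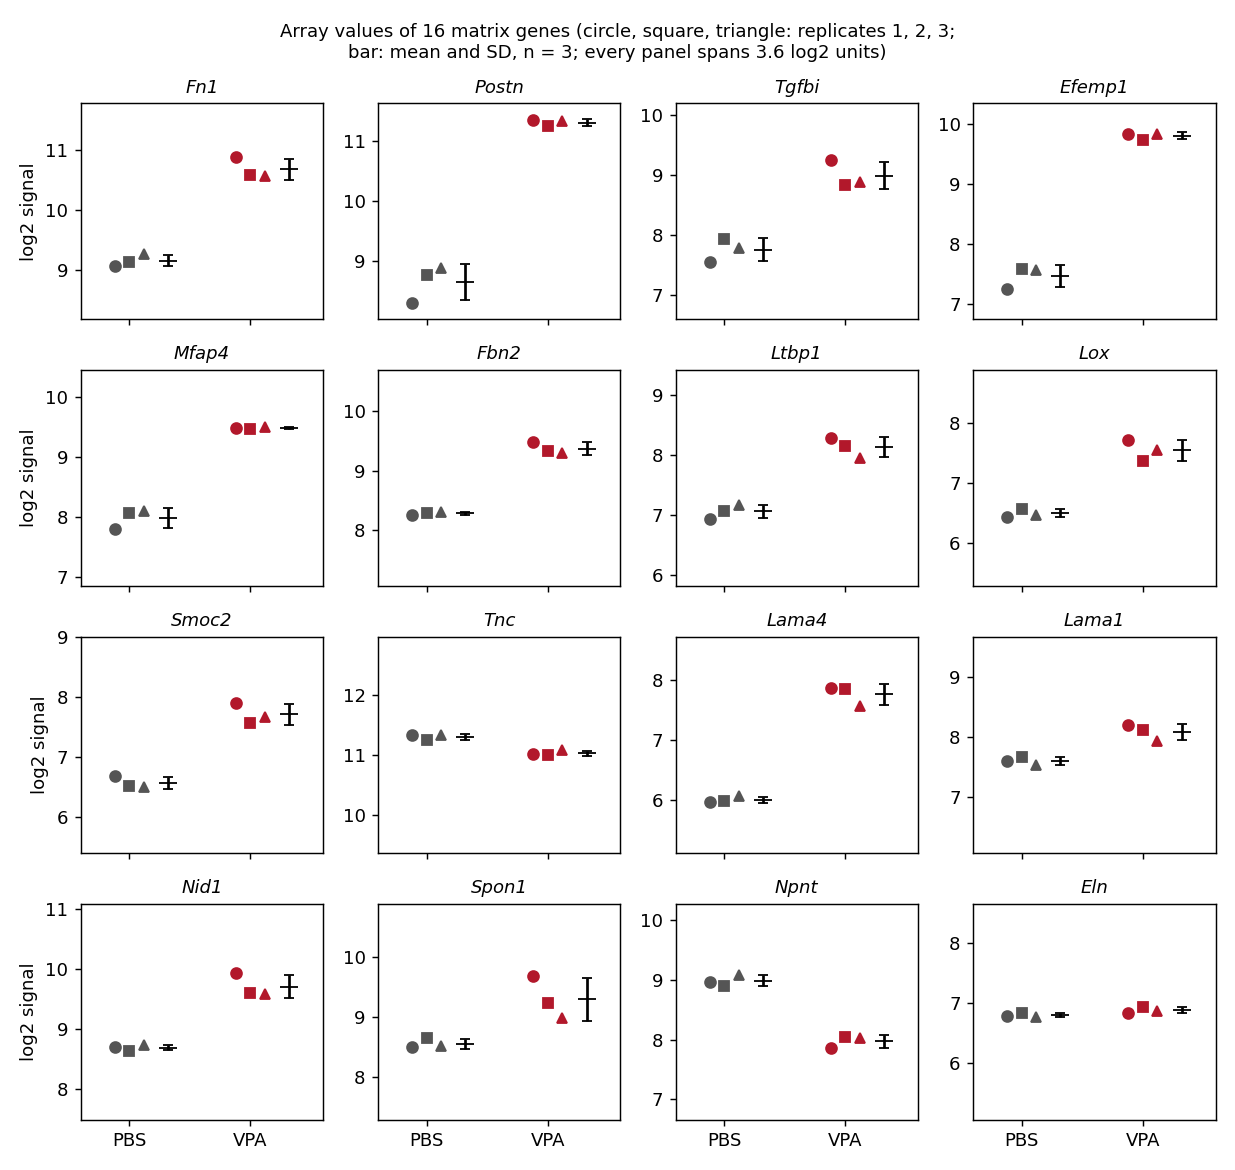
Log2 signal on each array for 16 members, with circles, squares and triangles for replicates 1, 2 and 3 of PBS (grey) and VPA (red), and a bar for the group mean and SD (n = 3). Postn and Efemp1 rise most with closely grouped VPA arrays, Spon1 has the widest VPA spread, Tnc and Npnt are lower with VPA, and the Eln groups overlap.

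Of the 4 latent TGF-beta binding proteins 2 rose. Ltbp1 encodes a protein that holds latent TGF-beta in the matrix. It read 6.93, 7.06 and 7.16 with PBS and 8.28, 8.14 and 7.95 with VPA, a change of 1.07 (SE 0.09, adjusted p = 6.06e-05). Ltbp4, whose product also helps elastic fibres form, read 7.37, 7.40 and 7.45 with PBS and 8.38, 8.02 and 7.94 with VPA. VPA 1 was the highest array, all VPA arrays lay above PBS, and the change was 0.71 (SE 0.11, adjusted p = 0.00115). Ltbp2, which encodes a microfibril protein that does not bind latent TGF-beta, differed by 0.10 (adjusted p = 0.216), although its groups did not overlap. Ltbp3 differed by -0.20 (95% interval -0.37 to -0.02, adjusted p = 0.093). VPA 1 was at 8.66, inside the PBS range, while VPA 2 and VPA 3 were at 8.38 and 8.47, and without VPA 1 the change of -0.27 passed (adjusted p = 0.00512).

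Among the lysyl oxidases 3 of 4 measured members rose, with a group median of 0.52. Lox, the founding enzyme of the family, read 6.44, 6.57 and 6.47 with PBS and 7.72, 7.37 and 7.55 with VPA, a change of 1.05 (SE 0.09, adjusted p = 5.09e-05). Loxl1, whose product is directed to elastic fibres, read 7.14, 7.23 and 7.38 with PBS and 8.05, 7.61 and 7.70 with VPA, a change of 0.54 (SE 0.11, adjusted p = 0.00712). Loxl3 read 7.31, 7.40 and 7.43 with PBS and 7.98, 7.88 and 7.79 with VPA, a change of 0.51 (SE 0.07, adjusted p = 0.000645). In these 3 genes the groups did not overlap, and VPA 1 was the highest array. Loxl4 lay at background in both groups, and it was the only member with more than 1 probe set, neither of which passed.

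Tenascins, thrombospondins and the SPARC family were mixed, with 4 of 9 members higher, 1 lower and a median of 0.09. Smoc2 encodes a SPARC-related protein that modulates growth factor signalling. It read 6.69, 6.53 and 6.51 with PBS and 7.90, 7.57 and 7.67 with VPA, a change of 1.14 (SE 0.09, adjusted p = 4.01e-05). The thrombospondin genes Thbs2 and Thbs1, whose products inhibit vessel growth, rose. Thbs2 read 7.17, 7.26 and 7.43 with PBS and 8.17, 8.10 and 8.27 with VPA (change 0.89, SE 0.08, adjusted p = 6.74e-05). Thbs1, whose product also activates latent TGF-beta, read 8.12, 8.23 and 8.16 with PBS and 9.12, 8.88 and 9.04 with VPA (change 0.84, SE 0.07, adjusted p = 6.06e-05). Sparc, a collagen-binding matricellular gene, rose by 0.24 (SE 0.06, adjusted p = 0.0158) from 11.35 ± 0.04 to 11.59 ± 0.06 (SD, n = 3). Its call was lost without PBS 1 (adjusted p = 0.0703) or PBS 2 (adjusted p = 0.0648).

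Tnc, which encodes the tenascin of neural progenitors and injured tissue, went the other way. It read 11.34, 11.25 and 11.33 with PBS and 11.01, 11.00 and 11.08 with VPA, so that every VPA array was below every PBS array. The fall was small, at -0.28 (SE 0.06, adjusted p = 0.00646), and lay between -0.26 and -0.30 when any 1 array was left out. Smoc1, the close relative of Smoc2, differed by -0.09 (95% interval -0.23 to 0.05, adjusted p = 0.303), an interval that lies wholly below that of Smoc2, 0.93 to 1.35. Thbs3 differed by 0.09 (adjusted p = 0.334), and Tnxb by -0.07 (adjusted p = 0.344) at levels close to background. The values of these members and of all the others are shown by array in the heat map.

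**Figure D3:**
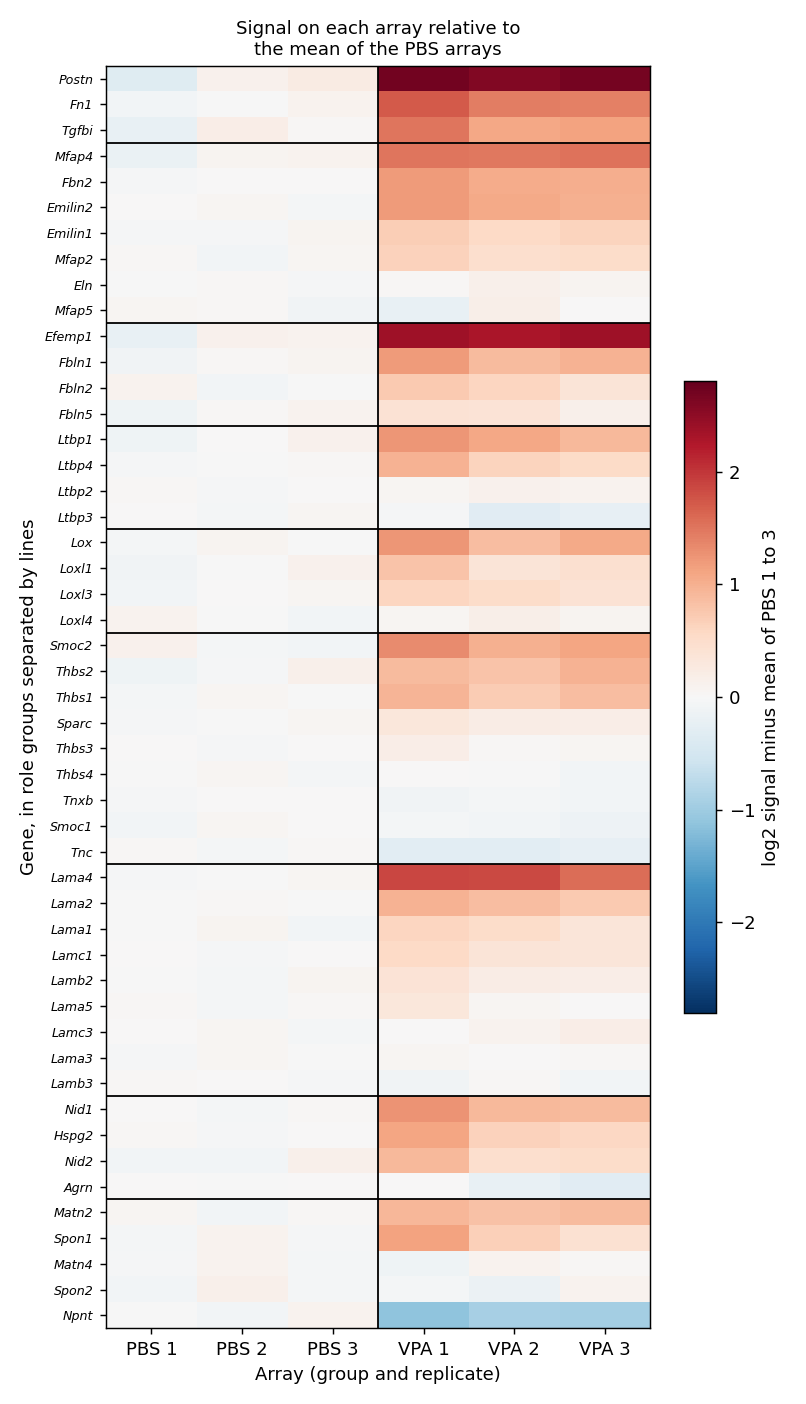
Log2 signal of the 49 members on each of the 6 arrays minus that gene's mean over the PBS arrays, with rows in role groups separated by lines and red for values above the PBS mean. The rows of Postn and Efemp1 are darkest on all VPA arrays, and many rows are deeper on VPA 1 than on VPA 2 and VPA 3.

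Among the 9 measured laminin chains 5 rose and 0 fell, and the chains that rose were those of alpha-1, alpha-2, alpha-4, beta-2 and gamma-1. Lama4, which encodes the alpha chain of vessel, muscle and fat basement membranes, read 5.97, 5.99 and 6.06 with PBS and 7.88, 7.85 and 7.57 with VPA. The PBS arrays were at background and the VPA arrays were not. The measured difference was 1.76 (SE 0.09, adjusted p = 2.79e-06), and its true size is not defined because PBS was at background. Lama2, the alpha chain of muscle and Schwann cell basement membranes, likewise left background, from 6.01, 6.05 and 6.01 to 6.99, 6.88 and 6.76, with a measured difference of 0.85 (SE 0.07, adjusted p = 3.86e-05). Beside these, the endothelial cadherin gene Cdh5 rose from background, with a measured difference of 1.98, the largest of its marker list. Of the other endothelial markers Emcn differed by 1.30, also from background, and the rest by 0.07 (Tek) to 0.62 (Cldn5). The Schwann lineage gene Erbb3 rose by 1.62, also the largest of its list, and the other measured neural crest and Schwann cell markers by 0.61 to 0.98. The part of endothelial and Schwann cells was not tested.

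Lama1, the alpha chain of the earliest embryonic basement membranes and of the pial surface, read 7.59, 7.66 and 7.53 with PBS and 8.20, 8.11 and 7.93 with VPA, a change of 0.48 (SE 0.08, adjusted p = 0.00171). Lamc1, the gamma chain shared by most laminin trimers, read 8.72, 8.69 and 8.73 with PBS and 9.28, 9.08 and 9.05 with VPA, a change of 0.42 (SE 0.07, adjusted p = 0.00248). For both, all VPA arrays were above all PBS arrays, by far less than for Lama4. Lamb2, a beta chain of synaptic and vessel basement membranes, rose by 0.26 (SE 0.07, adjusted p = 0.0231). It no longer passed when PBS 1 (adjusted p = 0.0844) or PBS 2 (adjusted p = 0.0967) was left out. The epithelial chain genes Lama3 and Lamb3 differed by 0.04 and -0.05 and did not pass, Lama3 being at background, and Lama5 and Lamc3 differed by 0.12 and 0.09 (adjusted p = 0.303 and 0.31).

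Linkers of the basement membrane rose, except agrin. Nid1 and Nid2 encode nidogens, which join laminin to type IV collagen. Nid1 read 8.70, 8.64 and 8.73 with PBS and 9.94, 9.60 and 9.58 with VPA, a change of 1.02 (SE 0.09, adjusted p = 8.03e-05). Nid2 read 8.18, 8.18 and 8.40 with PBS and 9.17, 8.74 and 8.77 with VPA, a change of 0.64 (SE 0.12, adjusted p = 0.00344). Hspg2, which encodes the heparan sulphate proteoglycan perlecan, read 7.87, 7.81 and 7.85 with PBS and 8.96, 8.49 and 8.42 with VPA, a change of 0.78 (SE 0.12, adjusted p = 0.00166). In all 3 the groups did not overlap and VPA 1 was the highest array. Without VPA 1 the change of Hspg2 was 0.61. Agrn, which encodes agrin, the proteoglycan that clusters receptors at the neuromuscular synapse and that neurons make, read 10.51, 10.48 and 10.52 with PBS and 10.51, 10.29 and 10.18 with VPA. VPA 1 was within the PBS range and the other VPA arrays were below it. The difference of -0.18 did not pass (adjusted p = 0.147), and without VPA 1 it was -0.27 and passed (adjusted p = 0.00514).

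**Figure D4:**
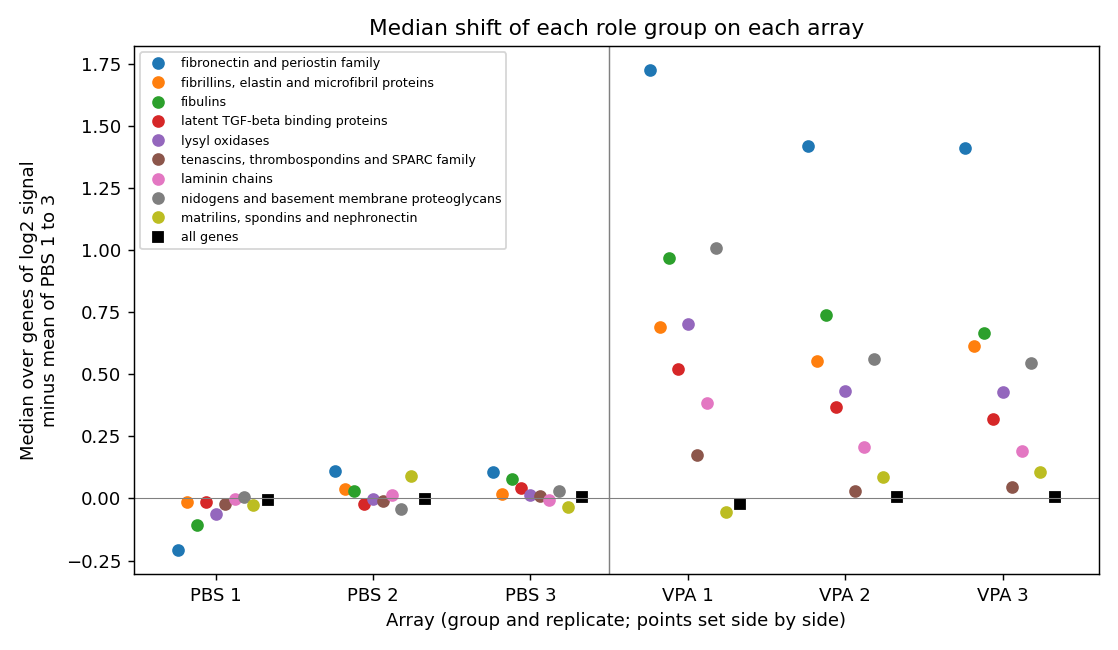
Median over the genes of each role group of the log2 signal minus the gene's PBS mean (y axis) on each array (x axis), with black squares for all 19938 genes. The fibronectin and periostin family is highest on each VPA array (1.41 to 1.73), nidogens and proteoglycans are at 1.01 on VPA 1 and 0.56 and 0.55 on VPA 2 and VPA 3, and the median of all genes lies between -0.02 and 0.01.

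The matrilins, spondins and nephronectin held the largest fall of the module, with 2 of 5 members higher and 1 lower. Npnt encodes nephronectin, a basement membrane ligand of the integrin whose alpha chain is Itga8. It read 8.96, 8.90 and 9.08 with PBS and 7.85, 8.04 and 8.02 with VPA. All VPA arrays were below all PBS arrays, and the change was -1.01 (SE 0.07, adjusted p = 2.41e-05), a 2.01-fold lower level; it lay between -0.95 and -1.05 when any 1 array was left out. Matn2, which encodes a matrilin, an adaptor of matrix filaments, read 6.53, 6.41 and 6.51 with PBS and 7.41, 7.29 and 7.36 with VPA, a change of 0.87 (SE 0.06, adjusted p = 1.86e-05). Spon1 encodes F-spondin, a floor plate protein that guides axons. It read 8.50, 8.65 and 8.52 with PBS and 9.69, 9.23 and 8.98 with VPA, a change of 0.75 (SE 0.15, adjusted p = 0.00593). Its VPA arrays had an SD of 0.36, the widest of any member, and the change was 0.55 without VPA 1. Matn4 and Spon2 differed by 0.00 and -0.04 and did not pass.

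Genes that work with the module were read from lists chosen by function, with earlier results of these data known. Among 12 fibril-forming and associated collagens 11 rose and 0 fell (median 0.85). The largest changes were those of Col3a1, a collagen of loose connective tissue, at 1.59 (SE 0.08), Col6a3, a chain of the beaded filament collagen around cells, at 1.54 (SE 0.09), and Col1a2, a chain of the main fibril collagen, at 1.26 (SE 0.06). Of 8 basement membrane collagens 3 rose (median 0.07): Col18a1 by 0.51 (SE 0.06), and the ubiquitous type IV chains Col4a1 and Col4a2 by 0.45 (SE 0.08) and 0.35 (SE 0.06). The other type IV chains, Col4a3 to Col4a6, differed by -0.05 to 0.02 and did not pass.

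Of 14 measured matrix processing and folding enzymes 5 rose and 0 fell (median 0.17). Pcolce, an enhancer of procollagen trimming, rose by 1.35 (SE 0.12), Tgm2, a cross-linking transglutaminase, by 0.85 (SE 0.08), and Plod1, a collagen lysyl hydroxylase, by 0.73 (SE 0.09). Bmp1, whose protease releases active lysyl oxidase, and Atp7a, the copper pump that loads it, differed by 0.16 (adjusted p = 0.105) and 0.18 (adjusted p = 0.141). Of 10 integrin chains that bind fibronectin and related ligands 8 rose and 0 fell (median 0.60), led by Itga8 at 1.66 (SE 0.10), Itga9 at 1.23 (SE 0.09) and the fibronectin receptor chain Itga5 at 1.05 (SE 0.12). Itga8 thus rose where its ligand gene Npnt fell. Of 7 laminin and basement membrane receptor genes 3 rose and 0 fell (median 0.15): Itga1 by 0.77 (SE 0.06) from a PBS mean at background, Itga6 by 0.69 (SE 0.06) and Itga7 by 0.25 (SE 0.07). Dag1, the dystroglycan gene, differed by 0.03 (adjusted p = 0.774).

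TGF-beta, whose latent form is held by the matrix, had 11 of 13 measured genes for its ligands, receptors and targets higher and 0 lower (median 0.41). The ligand gene Tgfb3 rose by 1.48 (SE 0.09), the receptor gene Tgfbr2 by 1.28 (SE 0.08) and the coreceptor gene Tgfbr3 by 1.10 (SE 0.11). Smad2 and Smad4 differed by 0.03 and 0.09 and did not pass.

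**Figure D5:**
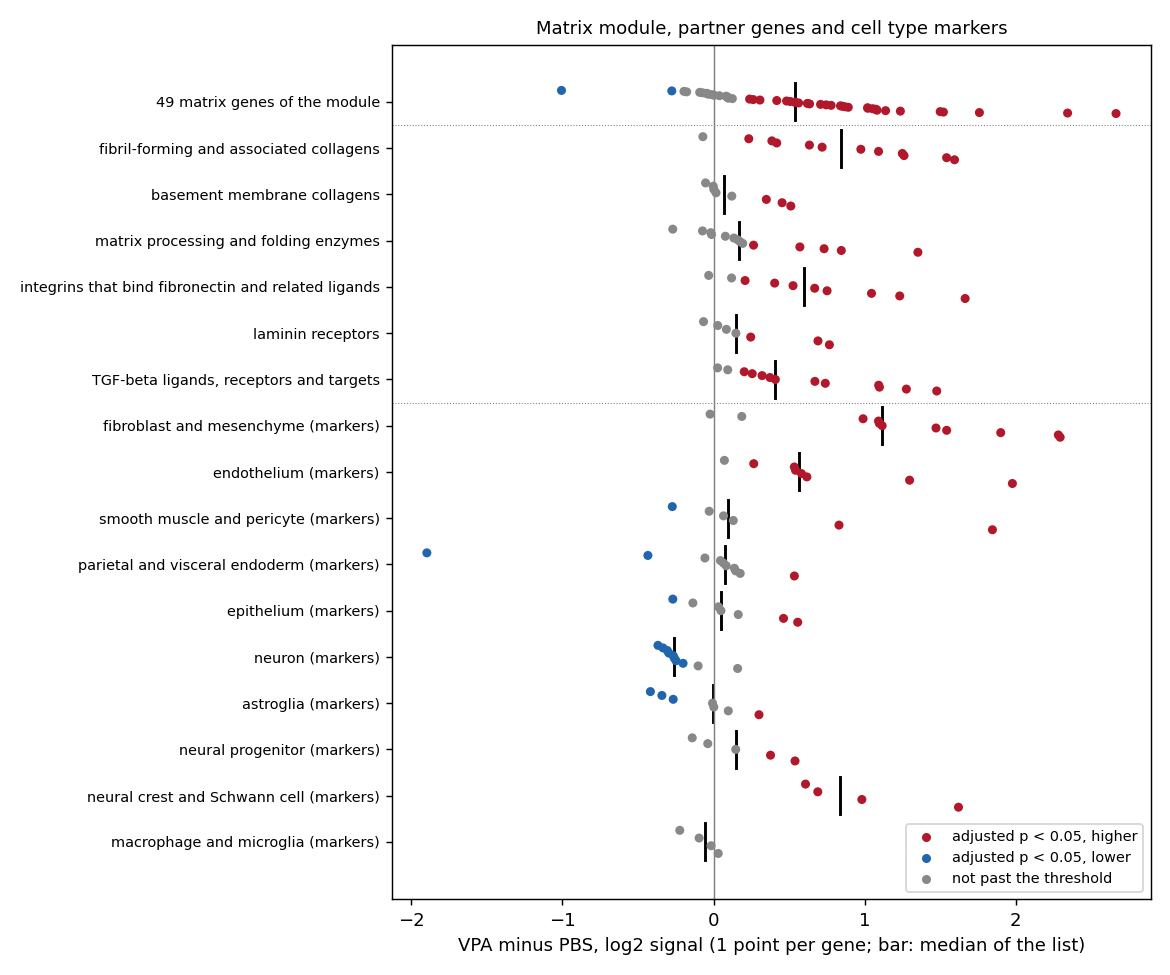
Change of each gene (x axis, VPA minus PBS in log2 signal) in the module, in 6 lists of partner genes and in 10 lists of cell type markers; each point is 1 gene, coloured by its call, and the black bar is the list median. The medians are 0.85 for fibril-forming collagens, 1.12 for fibroblast and mesenchyme markers, 0.84 for neural crest and Schwann cell markers and -0.26 for neuron markers, beside 0.54 for the module.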

How the data were processed

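The deposited table held the authors' log2 signals per probe set, 1 column for each of 6 arrays, from RNA labelled by an Affymetrix whole transcript assay; base 2 was inferred from their range, 2.50 to 13.89. The submitters' processing notes name Partek 6.5 and mm9 but not what they were used for. How signals were background-corrected, summarized and normalized is not given in the sources used here. Array medians are nearly equal, so each change is relative to other genes. No detection calls, scan dates or batches were used, and the number of arrays limits the precision. Of 35556 probe sets 21789 had 1 gene symbol, 1621 several and 12146 none; symbols were updated through Entrez IDs (21698 matched), and the probe set with the highest mean stood for each of 19938 genes.

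VPA was compared with PBS with lmFit and eBayes of limma 3.58.1 (R 4.3.3), without covariates or a filter. That fit also gave the 95% intervals. It was checked on simulated data with equal noise in both groups. Over all genes the median SD was 0.055 with PBS and 0.094 with VPA, a difference which that check did not cover. An exact permutation test of 3 against 3 arrays cannot go below a two-sided p of 0.1, so none is given. The members, lists and tests were chosen with earlier results of these data known. All members may be named; array values are given for the largest changes past the threshold in each role group and for members that moved against their group, and up to 3 genes are named per partner list, others being chosen after their values were seen. Alternatives were other scalings, filters, variance models, thresholds, array weights, a replicate block, probe set means and leaving out each array.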

Additional observations from a re-analysis of the deposited data

How the results depend on the processing

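Under 18 alternatives 30 of the 33 called members kept their call wherever they were tested. A level filter (50th percentile) left 7 of the 33 untested, Fbln5 among them. Fbln5, Sparc and Lamb2 lost theirs under a threshold of 0.01 and without PBS 1 or PBS 2, Fbln5 also without VPA 2. No member changed direction with a call. Ltbp3 and Agrn passed as lower with array weights and without VPA 1, Ltbp3 also at a threshold of 0.1. Members higher numbered 24 to 31; without 1 array they were 28 to 31, and members lower 2 to 4. Members lower were 4 with array weights. That filter moved the members' median to 0.67 and kept 24 rises. Genes past the threshold numbered 8917 with array weights, 3370 at a threshold of 0.01, and 3836 (without PBS 2) to 8173 (without VPA 1) when 1 array was left out, against 5825; the causes were not tested. After quantile normalization 3147 genes rose and 2671 fell, and the same 33 members were called.

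The labels give same-numbered replicates nothing in common but the number. Their deviations from group means correlated at -0.02, -0.01 and 0.02 over genes, and those of differently numbered pairs at -0.03 to 0.03. Such values cannot show whether same-numbered cultures shared a batch or a day. With the replicate number as a block, 5410 genes and 31 and 2 members were called, and the members' median change was 0.54. Depth here is signal over background: the true size of a change from background, as for Lama4 and Lama2, is not defined.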

Other observations

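Other matrix glycoproteins were read from a list of 51 genes written after the values of the module were known, of which 50 were measured. Of these 19 rose and 5 fell with VPA, beside 13.6% and 15.7% of all genes, and the median change was 0.07. Of the rises those of Mmrn2 and Mgp, and of the falls that of Ecm2, were between levels at background in both groups. Egflam, which encodes pikachurin, a dystroglycan ligand of retinal synapses, rose by 1.36 (SE 0.09, adjusted p = 1.62e-05). Frem1, a basement membrane gene of developing skin, rose by 0.86 (SE 0.10) and Aebp1, whose product binds collagen, by 0.84 (SE 0.10). Vtn, which encodes vitronectin, rose by 1.50 (SE 0.34, adjusted p = 0.00989), with 9.84 on VPA 1, 8.62 on VPA 2 and 8.20 on VPA 3 against 7.27 to 7.56 on the PBS arrays. Sparcl1, the relative of Sparc that astrocytes secrete, rose by 0.79 (SE 0.07).

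Of the genes that fell, Tnr, the tenascin of perineuronal nets and oligodendrocytes, read 7.62, 7.74 and 7.73 with PBS and 7.20, 6.85 and 6.78 with VPA, a change of -0.75 (SE 0.10, adjusted p = 0.000721). Edil3, an integrin ligand, changed by -0.53 (SE 0.08), Nell1 by -0.25 (SE 0.05) and Thsd4 by -0.21 (SE 0.06).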
